A study of Rattus norvegicus with 24 samples.

Results

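Primary rat cardiac fibroblasts taken from animals of 3-4 weeks of age were set against the same cell type taken from animals of 0-3 days of age, both after 24 hours in DMEM containing glucose at 5.5 mM (normal glucose). The comparison uses 6 of the 24 libraries of the series, 3 per age, and its groups were set by the age and glucose in the labels. Earlier results of these data were known when it was chosen. The other 18 libraries are cells of the same ages at 33 mM (high glucose), and cells of 10-13 weeks and 20 months at both glucose levels. All cells were grown in DMEM with 10% fetal bovine serum before plating, and no other drug, allele or treatment is named. The labels do not give the strain, the sex, the passage number, the pooling of animals or whether the 3 libraries of a group came from separate animals or cultures. The p-values measure the spread within the 8 groups of all 24 libraries, and this spread may be technical.

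The total count per library ranged from 18889708 to 20989302 in the 6 libraries, and the libraries of a group differed by more than counting error. Values per library are levels in CPM, the counts of a gene scaled by the TMM-adjusted library total, in the order of libraries 1, 2 and 3 of a group. Of 30957 genes in the table, 13806 passed the filter on low counts and were tested. A gene is written as called, or as having risen or fallen at 3-4 weeks, where the adjusted p of edgeR's quasi-likelihood test was under 0.05, and changes are log2 differences of 3-4 weeks minus 0-3 days with their standard errors (SE).

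Cardiac fibroblasts lie between the muscle cells of the heart, where they build and turn over the collagen network and signal to their neighbours through growth factors, matricellular proteins and chemokines. In rodents the heart muscle cells divide around birth and largely stop within the first weeks, while the fibroblasts lay down the matrix of the growing ventricle. Insulin-like growth factor signalling changes over the same weeks in many rodent tissues, as the fetal ligand Igf2 is silenced and Igf1 becomes the main ligand.

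Of the 13806 genes tested, 3457 were called (25.0%), of which 1754 rose (12.7%) and 1703 fell (12.3%) at 3-4 weeks, with a median change over all genes of -0.01. Changes of at least 2 fold were called in 1077 genes (7.80%), of which 333 rose (2.41%) and 744 fell (5.39%). Values of the 3 libraries of one age did not overlap those of the other in 5612 genes (40.6%), and only 138 of the 3457 called genes did overlap. A lack of overlap in a called gene below is therefore no separate support for its change. The count of called genes was 2289 without library 2 of 0-3 days. Library 1 of 3-4 weeks stood apart from the other 2 of its age in the summed mitosis genes and macrophage markers given below, and 2351 genes were called without it.

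**Figure D1:**
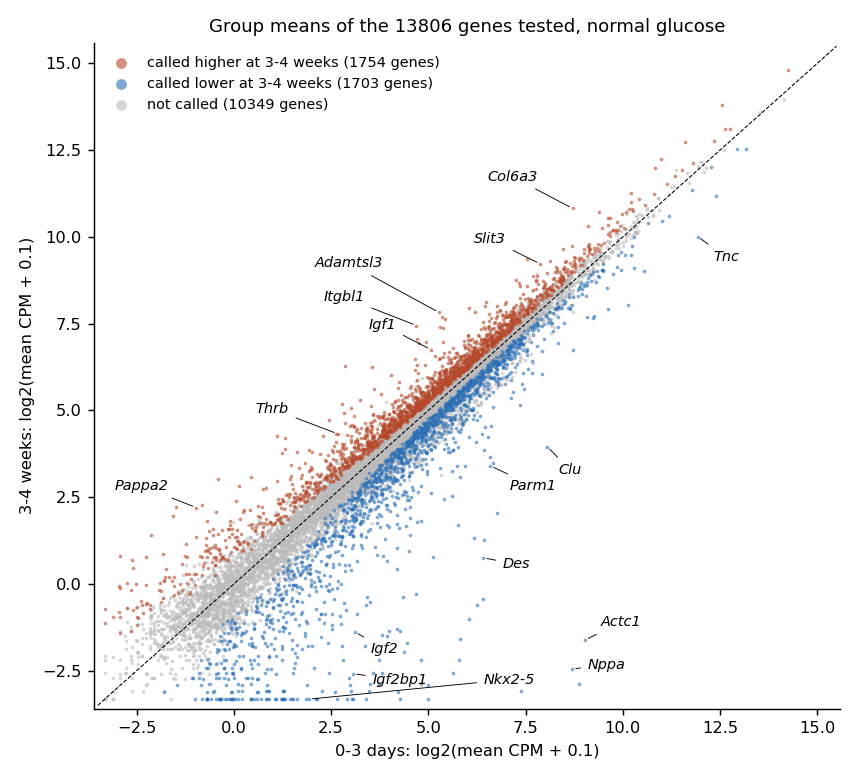
Mean CPM of each gene tested at 3-4 weeks (vertical axis) against 0-3 days (horizontal axis), both as log2 of the mean CPM of 3 libraries plus 0.1, coloured by call; the dashed line marks equal means. Fitted log2 changes of these genes ran from -13.52 to 6.39, and Actc1 and Nppa are among the genes furthest below the line.

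In high glucose the same ages gave 3728 called genes (27.0%), and 2750 genes were called in both glucose levels with the same direction, which is 79.5% of the normal glucose calls and 73.8% of the high glucose calls. No gene was called in opposite directions, and 3449 of the 3457 genes had the same sign. The high glucose libraries are not separate evidence, since a normal and a high glucose library of the same age and number deviated together from their group means, with correlations across genes of 0.57 to 0.67 at 3-4 weeks and 0.20 to 0.32 at 0-3 days. The main fit counted such pairs as independent libraries, so its p-values may be too small. With only the 6 compared libraries 2462 genes were called in normal glucose. The difference between the age effects at the 2 glucose levels was called in 0 genes by edgeR, in 0 by DESeq2 and in 0 by limma-voom, with 128 genes (0.927%) at an unadjusted p under 0.05 in edgeR. These fits left out the shared deviation of same-numbered libraries, so their 0 calls do not show that the age effects were equal. With the library number within each age as a block, edgeR called 2 genes. In that fit 734 of the 13806 tested had an unadjusted p under 0.05, which is near the share of 0.05 that would pass if no gene differed.

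One of those 2 was Tiparp, a mono-ADP-ribosyltransferase that is a target of the aryl hydrocarbon receptor. It had 15.8, 15.3 and 16.6 CPM at 3-4 weeks against 20.01, 25.4 and 25.2 CPM at 0-3 days in normal glucose, and 14.5, 14.1 and 17.4 CPM at 3-4 weeks against 33.4, 52.9 and 49.7 CPM at 0-3 days in high glucose (adjusted p = 0.00356 in the blocked fit). The level at 0-3 days was thus higher in high glucose in each of the 3 numbered pairs, and the levels at 3-4 weeks overlapped. The other was Creb3l1, a transcription factor of the secretory pathway, which had 106, 113 and 119 CPM at 3-4 weeks, against 86.3, 85.8 and 90.2 CPM at 0-3 days in normal glucose, and 97.1, 119 and 126 CPM at 3-4 weeks against 136, 141 and 120.0 CPM at 0-3 days in high glucose (adjusted p = 0.021 in the blocked fit). Both were chosen after their values were seen.

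**Figure D2:**
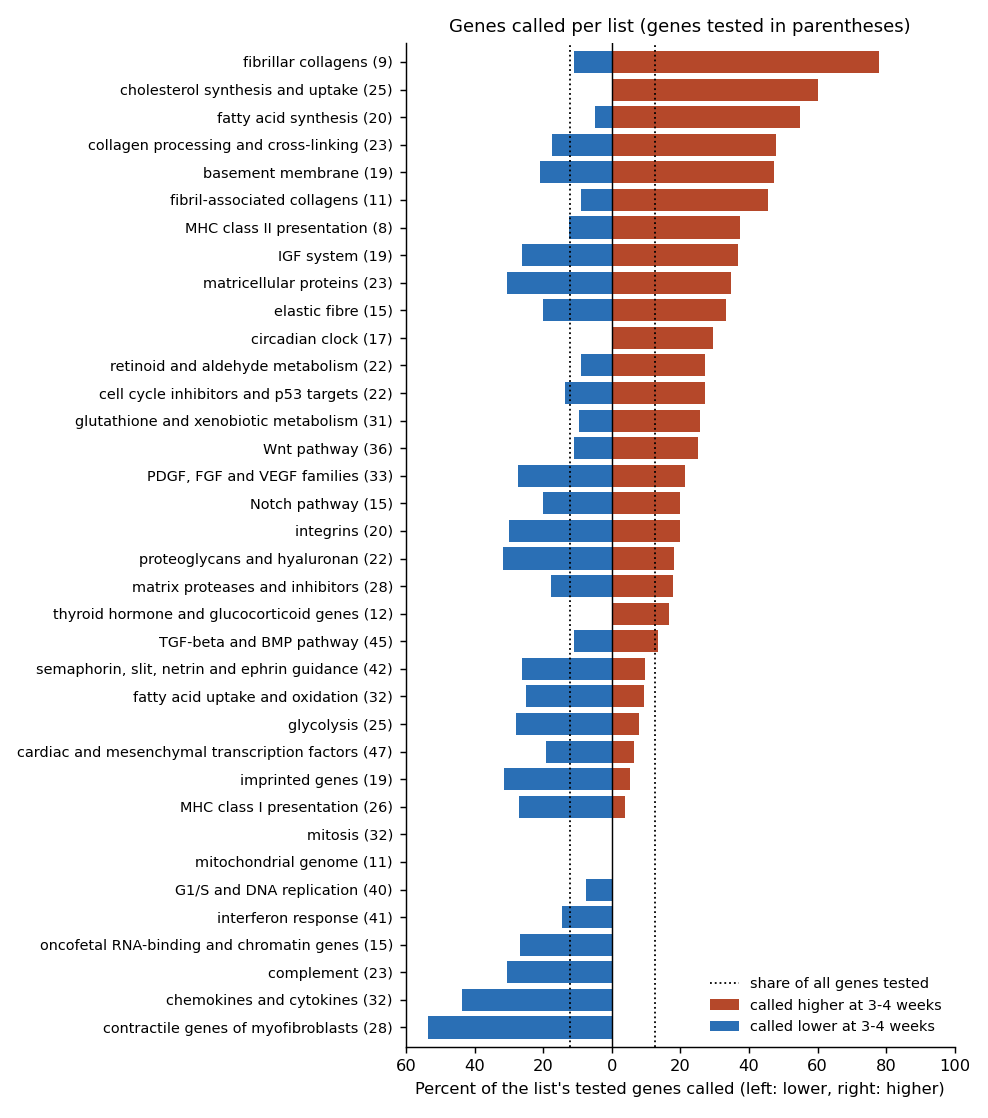
Share of each gene list's tested genes called higher (to the right) and lower (to the left) at 3-4 weeks, with the number tested in parentheses; dotted lines mark the shares over all genes, 12.7% higher and 12.3% lower. The cholesterol list has 15 of 25 members higher and 0 lower, and the contractile list 0 higher and 15 of 28 lower.

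The fibroblast label was set against marker genes first. The 12 fibroblast markers summed to 47659, 48816 and 48442 CPM at 3-4 weeks, against 30004, 29386 and 32001 CPM at 0-3 days, and 5 of 11 tested rose and 1 fell. Fibrillar collagen genes, some of them fibroblast markers too, gave 7 higher and 1 lower of 9 tested, beside 12.7% and 12.3% of all genes. They summed to 47934, 50710 and 47365 CPM at 3-4 weeks, against 28475, 28792 and 32064 CPM at 0-3 days. The marker sum thus does not separate fibroblast content from collagen expression. The 22 heart muscle cell markers all fell, and they summed to 98.97, 111 and 183.2 CPM at 3-4 weeks against 2509, 2457 and 2302 CPM at 0-3 days. Most of what was left at 3-4 weeks was Tnnt2, cardiac troponin T, with 89.4, 103 and 176 CPM at 3-4 weeks, against 356, 312 and 294 CPM at 0-3 days. The other 21 markers summed to 9.54, 7.75 and 6.86 CPM at 3-4 weeks against 2153, 2145 and 2007 CPM at 0-3 days. With 3 libraries against 3, an exact two-sided permutation test cannot go below a p of 0.1, and no test was made of these sums. The libraries of 0-3 days thus held more transcripts of heart muscle cells than those of 3-4 weeks, where 4 of the 22 markers had no count and Tnnt2 was still present. In bulk libraries fewer cells of a type and less RNA per cell cannot be told apart.

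The 11 endothelial markers summed to 68.8, 75.1 and 83.7 CPM at 3-4 weeks against 131.6, 151.2 and 145.4 CPM at 0-3 days. Macrophage and leukocyte markers summed to 1029, 403.5 and 362.5 CPM at 3-4 weeks against 971.1, 978.9 and 750.4 CPM at 0-3 days, so that library 1 of 3-4 weeks lay above all 0-3 days libraries and the other 2 lay below them. Of these 18 markers 0 rose and 6 fell; there were 11 lower without library 1 of 3-4 weeks and 3 lower without library 2 of 0-3 days. Of 10 smooth muscle and pericyte markers 1 rose and 4 fell, with a median log2 change of -0.97 against -0.01 over all genes tested. They summed to 1922, 2368 and 2376 CPM at 3-4 weeks against 1858, 1860 and 1891 CPM at 0-3 days, but the receptor Pdgfrb, which fibroblasts also express and which was the marker that rose, made up most of the sum. The other 9 summed to 320.9, 598.2 and 349.2 CPM at 3-4 weeks against 634.6, 709 and 832.8 CPM at 0-3 days, and these groups did not overlap. The 4 that fell were Myh11, Actg2, Mcam and Abcc9. The summed heart muscle and endothelial markers were thus lower in every library of 3-4 weeks, while the macrophage and leukocyte sums were mixed. The part of cell content in each gene change below was not tested.

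Of 19 tested genes of the IGF system, 7 rose and 5 fell at 3-4 weeks, beside 12.7% and 12.3% of all genes. The same shares of all genes stand beside the counts of the lists below. The ligand Igf1, whose gene lies at chr7:28412198-28486609 on the plus strand of Rnor_6.0, had 108, 82.9 and 133 CPM at 3-4 weeks, against 31.2, 38.2 and 30.7 CPM at 0-3 days. Every 3-4 weeks library lay above every 0-3 days library, and Igf1 rose by 1.69 ± 0.28 in log2 (SE, adjusted p = 0.000206). At later ages Igf1 averaged 178 ± 20.8 CPM at 10-13 weeks and 85.5 ± 10.02 CPM at 20 months (SD, n = 3 each). The fetal ligand Igf2 had 0, 0.26 and 0.588 CPM at 3-4 weeks, against 7.76, 9.44 and 8.45 CPM at 0-3 days, with only 17 counts over the 3 libraries of 3-4 weeks, and fell by 4.86 ± 0.63 in log2 (SE, adjusted p = 1.73e-05). The log2 change of Igf2 was -5.97 without library 3 of 3-4 weeks. Per length, Igf1 averaged 47.4 FPKM at 3-4 weeks and 15.4 FPKM at 0-3 days, and Igf2 averaged 0.0489 FPKM at 3-4 weeks and 1.54 FPKM at 0-3 days, so that Igf1 was the more abundant ligand at both ages.

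Both pappalysins rose. These secreted proteases cut IGF-binding proteins and so free the ligand. Pappa had 42.8, 24.3 and 32.7 CPM at 3-4 weeks, against 5.81, 10.02 and 8.26 CPM at 0-3 days, and rose by 2.05 ± 0.33 in log2 (SE, adjusted p = 0.000176). Pappa2 had 3.93, 5.41 and 4.16 CPM at 3-4 weeks, against 0.311, 0.387 and 0.531 CPM at 0-3 days, and rose by 3.44 ± 0.31 in log2 (SE, adjusted p = 1.61e-07). The groups stood apart in both genes. At later ages Pappa averaged 46.7 ± 5.12 CPM at 10-13 weeks and 64.5 ± 12.2 CPM at 20 months (SD, n = 3 each). Stc2, an inhibitor of pappalysins, also rose by 1.11 ± 0.33 in log2 (SE, adjusted p = 0.0182). Stc2 was not called without library 3 of 0-3 days (adjusted p = 0.059) and without library 2 of 3-4 weeks (adjusted p = 0.0539).

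The binding proteins moved in different directions. Igfbp5 had 211, 92.4 and 94.7 CPM at 3-4 weeks, against 24.3, 28.8 and 24.5 CPM at 0-3 days and rose by 2.36 ± 0.59 in log2 (SE, adjusted p = 0.00724), with library 1 of 3-4 weeks above the other 2 of its age. Igfbp6, which binds IGF2 in preference to IGF1, had 77.2, 64.3 and 73.4 CPM at 3-4 weeks, against 22.9, 21.97 and 31.1 CPM at 0-3 days and rose by 1.5 ± 0.20 in log2 (SE, adjusted p = 2.69e-05). Igfbp3, the main carrier of IGFs in blood, had 161, 227 and 396 CPM at 3-4 weeks, against 1583, 1259 and 535 CPM at 0-3 days and fell by 2.11 ± 0.54 in log2 (SE, adjusted p = 0.00847). The 0-3 days libraries of Igfbp3 were far apart, with library 3 the lowest, yet above all 3 libraries of 3-4 weeks. Igfbp3 was not called by edgeR with the library number as a block and only the compared libraries (adjusted p = 0.125). Igfbp4 had 13.6, 28.6 and 43.5 CPM at 3-4 weeks, against 29.9, 24.8 and 14.9 CPM at 0-3 days and was not called (adjusted p = 0.663). Of the receptors, Igf2r, which takes IGF2 to lysosomes, had 890.0, 850.4 and 942 CPM at 3-4 weeks, against 561, 616 and 521 CPM at 0-3 days and rose by 0.66 ± 0.15 in log2 (SE, adjusted p = 0.00358). Igf1r, the signalling receptor, had 45.5, 63.7 and 46.3 CPM at 3-4 weeks, against 61.5, 98.7 and 100.5 CPM at 0-3 days and fell by 0.74 ± 0.19 in log2 (SE, adjusted p = 0.00835), with library 2 of 3-4 weeks above library 1 of 0-3 days.

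The oncofetal list holds genes of embryonic growth that are low in most adult tissues, and 0 of its 15 tested members rose while 4 fell, against 7 lower without library 2 of 3-4 weeks. The Igf2bp genes encode RNA-binding proteins that bind and stabilise transcripts including that of Igf2. Igf2bp3 had 7.08, 5.51 and 4.5 CPM at 3-4 weeks, against 21.6, 22.3 and 22.02 CPM at 0-3 days and fell by 1.95 ± 0.19 in log2 (SE, adjusted p = 4.71e-07). Igf2bp2 had 6.29, 9.51 and 9.7 CPM at 3-4 weeks, against 17.8, 21.97 and 19.9 CPM at 0-3 days and fell by 1.23 ± 0.21 in log2 (SE, adjusted p = 0.000273). Igf2bp1 had 0, 0.052 and 0.147 CPM at 3-4 weeks, against 7.01, 9.05 and 8.69 CPM at 0-3 days and fell by 6.8 ± 0.74 in log2 (SE, adjusted p = 1.87e-05). The log2 change of Igf2bp1 was -8.00 without library 3 of 3-4 weeks. All 3 were lower in every 3-4 weeks library than in any 0-3 days library. Hmga2, a chromatin protein of embryonic mesenchyme whose transcript the same family binds, had 0.524, 0.468 and 0.196 CPM at 3-4 weeks, against 2.57, 6.19 and 4.54 CPM at 0-3 days and fell by 3.47 ± 0.54 in log2 (SE, adjusted p = 0.000103). At later ages Hmga2 averaged 0.789 ± 0.336 CPM at 10-13 weeks and 0.548 ± 0.237 CPM at 20 months (SD, n = 3 each).

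**Figure D3:**
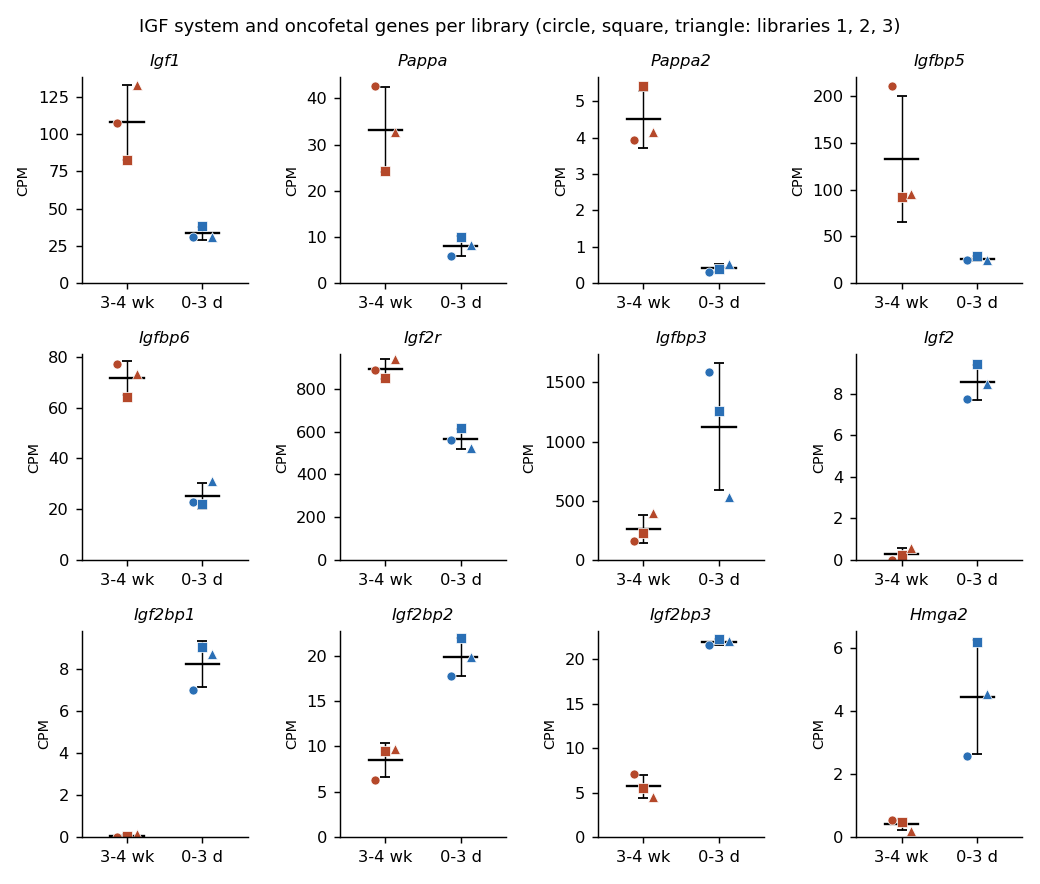
CPM of 12 genes of the IGF system and the oncofetal list in each library of 3-4 weeks (left, orange) and 0-3 days (right, blue); the horizontal bar is the mean and the whisker the SD of 3 libraries. In every panel the libraries of the 2 ages stand apart, and Igfbp3 at 0-3 days spreads between 535 and 1583 CPM.

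Among imprinted genes 1 of 19 rose and 6 fell. Cdkn1c, the imprinted inhibitor of cyclin-dependent kinases, had 0.21, 0.104 and 0.294 CPM at 3-4 weeks, against 2.08, 1.69 and 1.74 CPM at 0-3 days and fell by 3.14 ± 0.51 in log2 (SE, adjusted p = 0.000155), with few reads at 3-4 weeks.

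The matrix lists were split by where the protein sits. Collagens of microfibrils and fibril surfaces gave 5 higher and 1 lower of 11 tested. Col6a3, a chain of the beaded filaments around cells (chr9:97926787-98004546 on the minus strand of Rnor_6.0), had 1735, 2030 and 1671 CPM at 3-4 weeks, against 319, 348 and 588 CPM at 0-3 days and rose by 2.11 ± 0.31 in log2 (SE, adjusted p = 7.55e-05). At later ages Col6a3 averaged 2767 ± 728 CPM at 10-13 weeks and 724 ± 249 CPM at 20 months (SD, n = 3 each). Col6a2, its partner chain, had 1259, 1374 and 1862 CPM at 3-4 weeks, against 853, 753 and 834 CPM at 0-3 days and rose by 0.88 ± 0.20 in log2 (SE, adjusted p = 0.00317). Col14a1, a fibril-associated collagen, had 1462, 1382 and 1638 CPM at 3-4 weeks, against 750.3, 718 and 898 CPM at 0-3 days and rose by 0.92 ± 0.14 in log2 (SE, adjusted p = 8.37e-05). Every 3-4 weeks library lay above every 0-3 days library in these genes. Col8a2, a short-chain collagen of open networks, had 134, 140.1 and 94.3 CPM at 3-4 weeks, against 24.5, 27.2 and 28.98 CPM at 0-3 days and rose by 2.19 ± 0.25 in log2 (SE, adjusted p = 4.53e-06).

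Basement membrane genes gave 9 higher and 4 lower of 19 tested, and the chains of different laminins parted. Lama2, the alpha chain of the laminin around muscle fibres, had 432, 353 and 503 CPM at 3-4 weeks, against 198, 230.1 and 226 CPM at 0-3 days and rose by 0.98 ± 0.15 in log2 (SE, adjusted p = 0.000107). Lama4, a laminin chain of vessels and mesenchyme, rose by 0.66 ± 0.14 in log2 (SE, adjusted p = 0.00159), and Lamb2, a beta chain that pairs with both, rose by 0.44 ± 0.11 in log2 (SE, adjusted p = 0.00551). The network collagen Col4a5 had 269.8, 218 and 221 CPM at 3-4 weeks, against 106, 116 and 119.6 CPM at 0-3 days and rose by 1.05 ± 0.10 in log2 (SE, adjusted p = 2.21e-07). Lamb3 (chr13:112031594-112073186 on the plus strand of Rnor_6.0) had 0.472, 0.416 and 0.783 CPM at 3-4 weeks, against 11.98, 10.8 and 8.69 CPM at 0-3 days and fell by 4.21 ± 0.38 in log2 (SE, adjusted p = 1.13e-07). Lamb3 encodes a chain of the laminin known from epithelial basement membranes, and no library of 3-4 weeks reached its 0-3 days range. Per length, Lama2 averaged 45.9 FPKM at 3-4 weeks and 24.4 FPKM at 0-3 days, and Lamb3 averaged 0.137 FPKM at 3-4 weeks and 2.7 FPKM at 0-3 days, so Lamb3 was the less abundant at both ages. Col18a1, the source of endostatin, fell by 1.24 ± 0.26 in log2 (SE, adjusted p = 0.0021).

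Enzymes that process and cross-link collagen gave 11 higher and 4 lower of 23 tested. Adamts2, which removes the amino propeptide of procollagen, had 369.9, 383 and 404 CPM at 3-4 weeks, against 202, 174 and 186 CPM at 0-3 days and rose by 1.04 ± 0.11 in log2 (SE, adjusted p = 8.7e-07). The cross-linking lysyl oxidases Loxl1 and Loxl2 also differed between the ages. Loxl1 had 525, 474 and 484 CPM at 3-4 weeks, against 296, 243 and 262 CPM at 0-3 days and rose by 0.89 ± 0.11 in log2 (SE, adjusted p = 1.06e-05), and Loxl2 rose by 0.85 ± 0.16 in log2 (SE, adjusted p = 0.000895). Loxl2 was not called by edgeR with the library number as a block and only the compared libraries (adjusted p = 0.078). Tll1, a protease that removes the carboxy propeptide, had 6.45, 6.91 and 3.53 CPM at 3-4 weeks, against 17.4, 26.2 and 26.4 CPM at 0-3 days and fell by 2.05 ± 0.31 in log2 (SE, adjusted p = 0.000114). P3h2, a prolyl 3-hydroxylase, had 13.4, 13.6 and 13.5 CPM at 3-4 weeks, against 25.6, 27.3 and 26.8 CPM at 0-3 days and fell by 0.98 ± 0.18 in log2 (SE, adjusted p = 0.000438), with nearly equal values within each age.

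Elastic fibre genes gave 5 higher and 3 lower of 15 tested, against 3 higher and 2 lower without library 3 of 3-4 weeks, library 1 of 0-3 days, library 2 of 0-3 days or library 3 of 0-3 days. Fibrillins form the microfibril scaffold, and Fbn2 is the form best known from embryonic tissue. Fbn2 had 6.66, 9.72 and 4.26 CPM at 3-4 weeks, against 20.5, 23.9 and 26.4 CPM at 0-3 days and fell by 1.78 ± 0.32 in log2 (SE, adjusted p = 0.000491). At later ages Fbn2 averaged 6.48 ± 1.0 CPM at 10-13 weeks and 4.07 ± 1.41 CPM at 20 months (SD, n = 3 each). The latent TGF-beta binding protein family moved in both directions. Ltbp2 had 2755, 1784 and 1692 CPM at 3-4 weeks, against 939, 1227 and 1369 CPM at 0-3 days and rose by 0.82 ± 0.19 in log2 (SE, adjusted p = 0.00437), and Ltbp1 had 163, 183 and 212 CPM at 3-4 weeks, against 236, 289 and 287 CPM at 0-3 days and fell by 0.54 ± 0.12 in log2 (SE, adjusted p = 0.00191). Library 1 of 3-4 weeks was the highest for Ltbp2, and the groups did not overlap for either gene. Ltbp2 was not called by edgeR with the library number as a block and only the compared libraries (adjusted p = 0.124). Elastin itself, Eln, had 282, 396 and 819.8 CPM at 3-4 weeks, against 314, 259.7 and 379 CPM at 0-3 days and was not called (adjusted p = 0.383), with library 3 of 3-4 weeks far above the rest.

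Proteoglycan genes gave 4 higher and 7 lower of 22 tested. Bgn, the abundant small proteoglycan biglycan, had 6439, 6721 and 7881 CPM at 3-4 weeks, against 5535, 5079 and 5023 CPM at 0-3 days and rose by 0.43 ± 0.11 in log2 (SE, adjusted p = 0.00544). Gpc6, a cell surface glypican, had 91.5, 97.2 and 90.3 CPM at 3-4 weeks, against 42.7, 41.1 and 51.1 CPM at 0-3 days and rose by 1.05 ± 0.15 in log2 (SE, adjusted p = 3.45e-05). Fmod, fibromodulin, which binds collagen fibrils, had 13.8, 11.02 and 30.9 CPM at 3-4 weeks, against 79.01, 62.6 and 55.5 CPM at 0-3 days and fell by 1.82 ± 0.44 in log2 (SE, adjusted p = 0.00533). Bgn and Gpc6 stood higher, and Fmod lower, in every 3-4 weeks library. With the library number as a block and only the compared libraries, edgeR called neither Bgn (adjusted p = 0.0839) nor Fmod (adjusted p = 0.0637).

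Matricellular genes, whose products signal from the matrix rather than support it, gave 8 higher and 7 lower of 23 tested. Matn4, a matrilin, had 18.9, 11.5 and 11.4 CPM at 3-4 weeks, against 2.62, 2.81 and 3.48 CPM at 0-3 days and rose by 2.23 ± 0.29 in log2 (SE, adjusted p = 1.8e-05); it overlaps Rbpjl in the annotation. Smoc2 had 12.3, 20.2 and 24.6 CPM at 3-4 weeks, against 4.92, 5.28 and 4.11 CPM at 0-3 days and rose by 2.0 ± 0.30 in log2 (SE, adjusted p = 7.69e-05). Sparcl1 had 7.03, 6.19 and 6.37 CPM at 3-4 weeks, against 1.42, 2.03 and 1.26 CPM at 0-3 days and rose by 2.05 ± 0.31 in log2 (SE, adjusted p = 8.41e-05). Smoc2 and Sparcl1 are relatives of Sparc, and all of these were higher in each library of 3-4 weeks. The CCN family parted, since Wisp2 had 794, 849.5 and 928 CPM at 3-4 weeks, against 491, 388 and 372 CPM at 0-3 days and rose by 1.04 ± 0.16 in log2 (SE, adjusted p = 0.000113), while Nov had 673, 530.3 and 456 CPM at 3-4 weeks, against 1269, 1334 and 1170 CPM at 0-3 days and fell by 1.18 ± 0.18 in log2 (SE, adjusted p = 0.000112). Cyr61, of the same family, fell by 0.89 ± 0.17 in log2 (SE, adjusted p = 0.000661). Each library of 3-4 weeks was above those of 0-3 days for Wisp2 and below them for Nov and Cyr61. Thbs1, a thrombospondin that binds latent TGF-beta, had 1800, 2631 and 2572 CPM at 3-4 weeks, against 3883, 6170 and 6159 CPM at 0-3 days and fell by 1.21 ± 0.23 in log2 (SE, adjusted p = 0.000868). Spp1, osteopontin, fell by 1.59 ± 0.35 in log2 (SE, adjusted p = 0.00269). Postn, periostin, had 4869, 2747 and 4173 CPM at 3-4 weeks, against 2666, 2432 and 2890 CPM at 0-3 days and was not called (adjusted p = 0.0529).

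**Figure D4:**
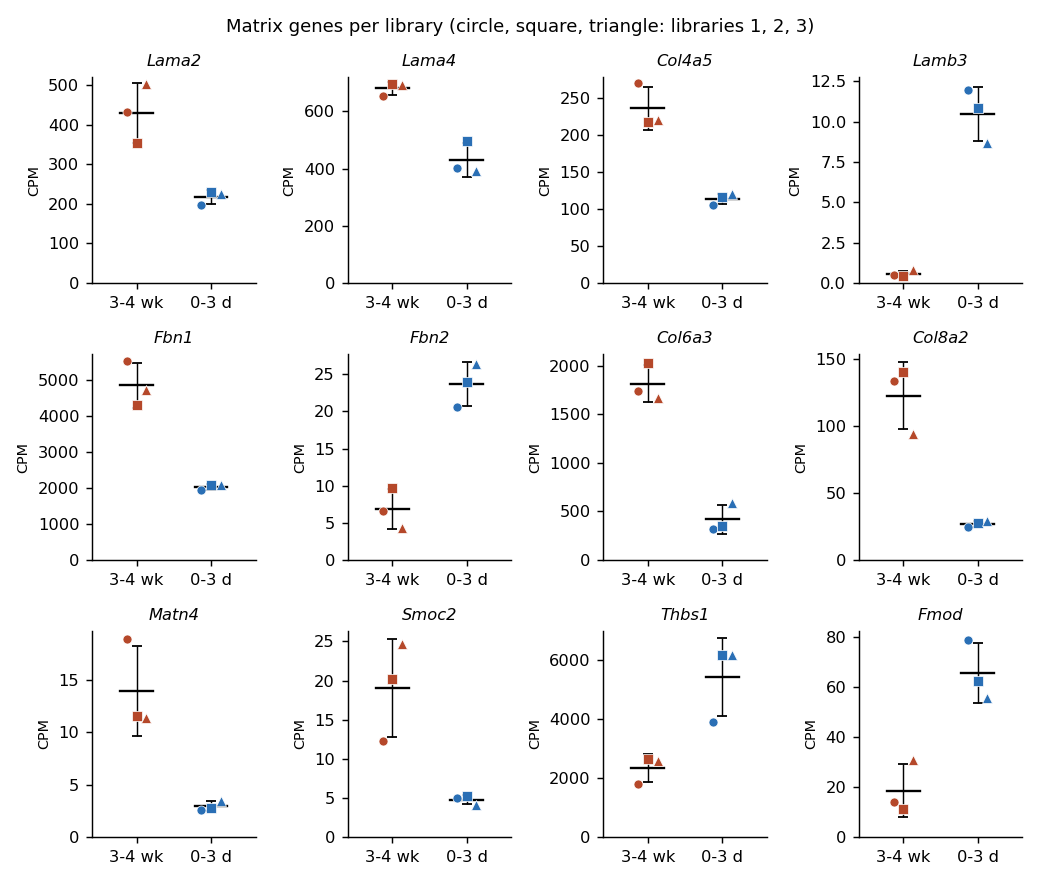
CPM of 12 matrix genes in each library of 3-4 weeks (left, orange) and 0-3 days (right, blue), with the mean and SD of 3 libraries. Lama2, Lama4, Col4a5, Fbn1, Col6a3, Col8a2, Matn4 and Smoc2 are higher in all 3 libraries of 3-4 weeks, and Lamb3, Fbn2, Thbs1 and Fmod are lower in all 3.

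Of 20 integrin and collagen receptor genes, 4 rose and 6 fell, against 2 higher and 4 lower without library 3 of 3-4 weeks, 2 higher and 3 lower without library 2 of 0-3 days and 2 higher and 2 lower without library 3 of 0-3 days. Ddr2, a tyrosine kinase receptor for fibrillar collagen, had 239, 230.0 and 281 CPM at 3-4 weeks, against 140.2, 149 and 149 CPM at 0-3 days and rose by 0.78 ± 0.13 in log2 (SE, adjusted p = 0.000168). Itga7, a laminin receptor subunit of muscle cells, had 7.34, 13.3 and 10.97 CPM at 3-4 weeks, against 62.9, 62.7 and 57.6 CPM at 0-3 days and fell by 2.54 ± 0.23 in log2 (SE, adjusted p = 1.86e-07). Itga3, another laminin receptor subunit, had 15.4, 29.3 and 33.7 CPM at 3-4 weeks, against 63.97, 84.98 and 77.6 CPM at 0-3 days and fell by 1.53 ± 0.33 in log2 (SE, adjusted p = 0.00257). The groups did not overlap in any of these. Itga7 is also expressed by heart muscle cells, whose markers fell with age.

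Contractile genes of myofibroblasts and smooth muscle gave 0 higher and 15 lower of 28 tested, with a median change of -0.38. Myofibroblasts are activated fibroblasts that carry smooth muscle type actin bundles. Des, the muscle intermediate filament protein (chr9:82556573-82564294 on the plus strand of Rnor_6.0), had 1.21, 1.2 and 2.35 CPM at 3-4 weeks, against 93.1, 96.3 and 66.3 CPM at 0-3 days and fell by 5.74 ± 0.34 in log2 (SE, adjusted p = 4.82e-10). Synpo2, an actin-binding protein of the Z-disc, had 1.26, 2.23 and 2.3 CPM at 3-4 weeks, against 16.6, 20.8 and 17.1 CPM at 0-3 days and fell by 3.22 ± 0.24 in log2 (SE, adjusted p = 6.67e-09). Both genes are also expressed in heart muscle cells. Myh11, the smooth muscle myosin heavy chain, had 6.87, 11.3 and 9.94 CPM at 3-4 weeks, against 48.8, 58.6 and 39.9 CPM at 0-3 days and fell by 2.39 ± 0.24 in log2 (SE, adjusted p = 6.73e-07). Cnn1, calponin of smooth muscle, had 7.92, 12.3 and 5.09 CPM at 3-4 weeks, against 50.1, 63.1 and 54.9 CPM at 0-3 days and fell by 2.73 ± 0.39 in log2 (SE, adjusted p = 6.44e-05). Each was several fold lower in every library of 3-4 weeks.

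Smaller changes were found in other members. Tpm1, a tropomyosin, had 629, 593 and 462 CPM at 3-4 weeks, against 876, 884 and 1031 CPM at 0-3 days and fell by 0.73 ± 0.14 in log2 (SE, adjusted p = 0.000774). Myl9, a myosin regulatory light chain, had 398, 454 and 399.8 CPM at 3-4 weeks, against 631, 589 and 681 CPM at 0-3 days and fell by 0.6 ± 0.15 in log2 (SE, adjusted p = 0.00647). Tagln, transgelin, had 3434, 3319 and 2333 CPM at 3-4 weeks, against 3012, 3181 and 3852 CPM at 0-3 days and was not called (adjusted p = 0.57); it overlaps Sidt2 on the same strand. Myocd, the coactivator that drives smooth muscle genes with Srf, had 0.419, 0.416 and 0.294 CPM at 3-4 weeks, against 2.62, 2.52 and 5.51 CPM at 0-3 days and fell by 3.22 ± 0.57 in log2 (SE, adjusted p = 0.000385). The groups did not overlap in Tpm1, Myl9 and Myocd. The summed heart muscle markers and the summed smooth muscle and pericyte markers other than Pdgfrb were also lower in all libraries of 3-4 weeks, and that last list itself holds Myh11 and Actg2.

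The CArG box, bound by Srf, was searched in RefSeq promoters (GRCr8, 250 bases before to 50 after the gene start) as CC, 6 of A or T, then GG, on both strands. It was found in 2 of 23 contractile promoters (8.70%), those of Cnn2 and Srf, in 3 of 19 promoters of heart muscle markers (15.8%) and in 1.64% of all 27457 promoters. The promoter of Actc1, the cardiac actin, is shown because this gene had 0.262, 0.416 and 0 CPM at 3-4 weeks, against 536, 551 and 483 CPM at 0-3 days, and the capitals mark its CArG box.
Actc1, chr3:121271778-121272077, minus strand: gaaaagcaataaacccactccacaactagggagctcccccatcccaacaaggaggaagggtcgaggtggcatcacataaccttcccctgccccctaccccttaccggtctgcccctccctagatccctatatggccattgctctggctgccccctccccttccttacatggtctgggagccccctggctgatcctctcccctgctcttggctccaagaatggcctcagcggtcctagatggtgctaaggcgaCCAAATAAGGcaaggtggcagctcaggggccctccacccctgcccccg

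TGF-beta and BMP pathway genes gave 6 higher and 5 lower of 45 tested, near the 12.7% and 12.3% of all genes. The counts were 4 higher and 3 lower without library 1 of 3-4 weeks or library 2 of 0-3 days. They were 3 higher and 4 lower without library 3 of 0-3 days. The called members included extracellular antagonists of BMP ligands. Chrd, chordin, had 20.8, 17.1 and 18.8 CPM at 3-4 weeks, against 8.34, 8.47 and 7.2 CPM at 0-3 days and rose by 1.24 ± 0.14 in log2 (SE, adjusted p = 3.14e-06). Grem1 had 56.3, 82.8 and 80.1 CPM at 3-4 weeks, against 137, 222 and 205 CPM at 0-3 days and fell by 1.37 ± 0.35 in log2 (SE, adjusted p = 0.00758). Grem1 was lower, and Chrd higher, in each library of 3-4 weeks. At later ages Grem1 averaged 156 ± 36.7 CPM at 10-13 weeks and 310.2 ± 79.7 CPM at 20 months (SD, n = 3 each).

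Wnt pathway genes gave 9 higher and 4 lower of 36 tested, against 4 higher and 4 lower without library 2 of 0-3 days. Fzd6, a Wnt receptor, had 36.8, 22.04 and 30.5 CPM at 3-4 weeks, against 11.2, 10.8 and 13.9 CPM at 0-3 days and rose by 1.32 ± 0.23 in log2 (SE, adjusted p = 0.000352). The ligand Wnt4 had 69.3, 62.4 and 44.3 CPM at 3-4 weeks, against 31.01, 22.8 and 23.8 CPM at 0-3 days and rose by 1.18 ± 0.30 in log2 (SE, adjusted p = 0.00848). Wnt5a, a ligand of the pathway that does not act through beta-catenin, had 8.54, 9.51 and 5.78 CPM at 3-4 weeks, against 12.6, 13.99 and 15.2 CPM at 0-3 days and fell by 0.81 ± 0.18 in log2 (SE, adjusted p = 0.00238). The libraries of the 2 ages did not overlap in these genes. Wnt5a was not called by edgeR with the library number as a block and only the compared libraries (adjusted p = 0.0607).

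Of 33 genes of the PDGF, FGF and VEGF families, 7 rose and 9 fell. Among receptors of mesenchymal cells, Fgfr1 had 198, 218 and 232 CPM at 3-4 weeks, against 129.6, 124 and 128 CPM at 0-3 days and rose by 0.76 ± 0.09 in log2 (SE, adjusted p = 3.29e-06), and Pdgfrb had 1601, 1769 and 2026 CPM at 3-4 weeks, against 1224, 1151 and 1059 CPM at 0-3 days and rose by 0.65 ± 0.14 in log2 (SE, adjusted p = 0.00199). Figf, the ligand VEGF-D, had 195, 223 and 412 CPM at 3-4 weeks, against 112, 85.8 and 69.4 CPM at 0-3 days and rose by 1.64 ± 0.36 in log2 (SE, adjusted p = 0.00289). Figf was not called by edgeR with the library number as a block and only the compared libraries (adjusted p = 0.0824). The VEGF receptors of endothelium were lower, and so were the endothelial marker sums. Flt1 had 34.5, 38.9 and 48.8 CPM at 3-4 weeks, against 77.2, 94.1 and 98.6 CPM at 0-3 days and fell by 1.14 ± 0.23 in log2 (SE, adjusted p = 0.00118). Kdr had 0.734, 0.884 and 0.783 CPM at 3-4 weeks, against 2.97, 3.39 and 3.38 CPM at 0-3 days and fell by 2.01 ± 0.32 in log2 (SE, adjusted p = 0.000126). Flt1 and Kdr are themselves members of the endothelial marker list.

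Notch pathway genes gave 3 higher and 3 lower of 15 tested, beside 12.7% and 12.3% of all genes. Heyl, a target of Notch, had 49.7, 34.9 and 33.8 CPM at 3-4 weeks, against 11.8, 6.97 and 9.37 CPM at 0-3 days and rose by 2.07 ± 0.35 in log2 (SE, adjusted p = 0.000311). The ligand Jag2 had 0.21, 0.104 and 0 CPM at 3-4 weeks, against 3.33, 3.24 and 1.98 CPM at 0-3 days and fell by 4.72 ± 0.55 in log2 (SE, adjusted p = 3.79e-06). The log2 change of Jag2 was -5.66 without library 1 of 3-4 weeks and -4.13 without library 3 of 3-4 weeks. Both genes had no overlap between the ages.

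Guidance genes, first known from axons and used by vessels and mesenchyme too, gave 4 higher and 11 lower of 42 tested. Slit3, a secreted ligand of Robo receptors, had 564, 563 and 666 CPM at 3-4 weeks, against 245, 234 and 228 CPM at 0-3 days and rose by 1.34 ± 0.14 in log2 (SE, adjusted p = 8.96e-07). At later ages Slit3 averaged 903 ± 116 CPM at 10-13 weeks and 742 ± 135 CPM at 20 months (SD, n = 3 each). Sema5a had 16.4, 20.6 and 24.6 CPM at 3-4 weeks, against 45.7, 47.7 and 43.5 CPM at 0-3 days and fell by 1.15 ± 0.16 in log2 (SE, adjusted p = 2.54e-05). The semaphorin receptor Plxnd1 had 21.4, 27.8 and 29.3 CPM at 3-4 weeks, against 51.5, 54.1 and 38.6 CPM at 0-3 days and fell by 0.88 ± 0.14 in log2 (SE, adjusted p = 0.000143). The ephrin receptor Epha3 had 0.786, 0.624 and 1.18 CPM at 3-4 weeks, against 5.41, 4.84 and 5.07 CPM at 0-3 days and fell by 2.55 ± 0.41 in log2 (SE, adjusted p = 0.000155). All of these fell below the 0-3 days range in each 3-4 weeks library, and Slit3 lay above it.

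Of 47 cardiac and mesenchymal transcription factors, 3 rose and 9 fell. Snai1, a factor of mesenchymal transition, had 65.9, 74.5 and 72.7 CPM at 3-4 weeks, against 46.6, 39.7 and 35.6 CPM at 0-3 days and rose by 0.8 ± 0.15 in log2 (SE, adjusted p = 0.00056). Osr1, a factor of embryonic mesenchyme, had 9.23, 5.82 and 7.59 CPM at 3-4 weeks, against 17.3, 15.2 and 17.1 CPM at 0-3 days and fell by 1.13 ± 0.20 in log2 (SE, adjusted p = 0.000371). Nkx2-5 and Irx4, factors of heart muscle cells, had no count in any 3-4 weeks library. Nkx2-5 had 4.04, 3.1 and 3.96 CPM and Irx4 3.55, 4.16 and 2.85 CPM at 0-3 days, which makes them at least 72.4-fold and at least 68.9-fold lower at 3-4 weeks against a floor of 3 counts over the group. Factors known from heart fibroblasts as well as other heart cells were among those not called. Gata4 had 134, 159 and 155 CPM at 3-4 weeks, against 169, 160.0 and 163 CPM at 0-3 days (adjusted p = 0.318). Tbx20 had 109, 126 and 119 CPM at 3-4 weeks, against 92.6, 127 and 129 CPM at 0-3 days (adjusted p = 0.945), and Tcf21 had 36.01, 33.9 and 68.5 CPM at 3-4 weeks, against 46.6, 34.3 and 32.3 CPM at 0-3 days (adjusted p = 0.536).

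Circadian clock genes gave 5 higher and 0 lower of 17 tested. Tef and Dbp, PAR-domain factors that are output genes of the clock, were among them. Tef had 59.1, 50.99 and 60.6 CPM at 3-4 weeks, against 38.2, 32.5 and 39.2 CPM at 0-3 days and rose by 0.64 ± 0.14 in log2 (SE, adjusted p = 0.00232). Dbp had 19.8, 12.5 and 19.2 CPM at 3-4 weeks, against 10.3, 8.71 and 7.73 CPM at 0-3 days and rose by 0.94 ± 0.23 in log2 (SE, adjusted p = 0.00614). Bhlhe41, a repressor of the clock, had 28.6, 20.6 and 17.2 CPM at 3-4 weeks, against 11.1, 10.9 and 9.9 CPM at 0-3 days and rose by 1.05 ± 0.16 in log2 (SE, adjusted p = 8.16e-05). The 3 genes were higher in every 3-4 weeks library. The time of day of harvest is not in the labels. Thrb, a thyroid hormone receptor, had 16.4, 18.4 and 25.2 CPM at 3-4 weeks, against 6.92, 6.1 and 5.7 CPM at 0-3 days and rose by 1.68 ± 0.20 in log2 (SE, adjusted p = 5.93e-06). At later ages Thrb averaged 23.9 ± 4.01 CPM at 10-13 weeks and 41.3 ± 3.76 CPM at 20 months (SD, n = 3 each).

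Cholesterol synthesis and uptake genes gave 15 higher and 0 lower of 25 tested, with a median change of 0.55, against 7 higher without library 1 of 3-4 weeks and 9 higher without library 3 of 0-3 days. The pathway is switched on by Srebf2, which is held in the endoplasmic reticulum by Insig proteins when sterol is plentiful. Srebf2 had 206, 186 and 201 CPM at 3-4 weeks, against 139.6, 142 and 144 CPM at 0-3 days and rose by 0.48 ± 0.10 in log2 (SE, adjusted p = 0.00103). Insig1 had 403, 289 and 462 CPM at 3-4 weeks, against 204, 159.5 and 128 CPM at 0-3 days and rose by 1.23 ± 0.24 in log2 (SE, adjusted p = 0.0011). Lss, the enzyme that closes the sterol rings, had 119, 64.3 and 92.1 CPM at 3-4 weeks, against 42.7, 38.96 and 36.8 CPM at 0-3 days and rose by 1.22 ± 0.22 in log2 (SE, adjusted p = 0.000458). Every 3-4 weeks library was above every 0-3 days library in these 3 genes. The list summed to 5848, 4057 and 4965 CPM at 3-4 weeks against 3683, 3334 and 3141 CPM at 0-3 days.

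Fatty acid synthesis genes gave 11 higher and 1 lower of 20 tested. Scd2, a stearoyl-CoA desaturase, had 1930, 1227 and 1906 CPM at 3-4 weeks, against 794, 682 and 532 CPM at 0-3 days and rose by 1.33 ± 0.26 in log2 (SE, adjusted p = 0.00107); it is a close relative of Scd1, so reads may be shared between them. All libraries of 3-4 weeks lay above those of 0-3 days. Acss2, which makes acetyl-CoA from acetate, had 49.5, 24.9 and 41.2 CPM at 3-4 weeks, against 20.9, 16.02 and 15.9 CPM at 0-3 days and rose by 1.13 ± 0.24 in log2 (SE, adjusted p = 0.00216). Fasn, fatty acid synthase, had 853, 669 and 846 CPM at 3-4 weeks, against 581, 582 and 534 CPM at 0-3 days and rose by 0.48 ± 0.14 in log2 (SE, adjusted p = 0.0136). Fasn was not called without library 3 of 0-3 days or library 1 or 3 of 3-4 weeks (adjusted p between 0.0558 and 0.0603). Fads1, a fatty acid desaturase, had 294, 269 and 352 CPM at 3-4 weeks, against 195, 159 and 139 CPM at 0-3 days and rose by 0.89 ± 0.28 in log2 (SE, adjusted p = 0.0262). Fads1 was not called without library 2 or 3 of 0-3 days or library 1 or 3 of 3-4 weeks (adjusted p between 0.0543 and 0.099).

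The core of the sterol response element, the site of SREBP factors, was searched as CACNCCAC on both strands of the same RefSeq promoters (GRCr8). It was in 3 of 18 cholesterol promoters (16.7%), in 2 of 18 fatty acid synthesis promoters (11.1%) and in 5.70% of all 27457 promoters. Promoters of 3 called members with a match are shown because these genes rose, with the match on either strand in capitals. Ebp and Elovl5 also had a match and were not called, and most risen members, such as Lss, Srebf2 and Scd2, had none. A link between a match and a rise was not tested. Acat2, a thiolase of sterol synthesis, had 191, 119 and 136 CPM at 3-4 weeks, against 110.0, 93.3 and 86.5 CPM at 0-3 days and rose by 0.62 ± 0.19 in log2 (SE, adjusted p = 0.02). Acat2 was not called without library 2 or 3 of 0-3 days or library 1 of 3-4 weeks (adjusted p between 0.0666 and 0.145).
Acat2, chr1:50100590-50100889, plus strand: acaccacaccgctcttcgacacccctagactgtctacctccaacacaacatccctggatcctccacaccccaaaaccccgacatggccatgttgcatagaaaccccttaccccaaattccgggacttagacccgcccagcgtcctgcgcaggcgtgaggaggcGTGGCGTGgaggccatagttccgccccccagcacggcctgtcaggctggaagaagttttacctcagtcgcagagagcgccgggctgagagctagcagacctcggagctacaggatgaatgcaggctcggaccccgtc
Insig1, chr4:8057720-8058019, minus strand: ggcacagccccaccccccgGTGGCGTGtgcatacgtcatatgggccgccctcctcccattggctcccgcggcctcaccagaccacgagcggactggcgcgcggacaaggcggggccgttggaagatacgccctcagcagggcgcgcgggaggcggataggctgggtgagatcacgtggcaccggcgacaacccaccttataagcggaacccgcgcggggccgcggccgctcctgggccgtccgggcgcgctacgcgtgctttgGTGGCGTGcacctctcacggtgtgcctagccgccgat
Fads1, chr1:216252442-216252741, plus strand: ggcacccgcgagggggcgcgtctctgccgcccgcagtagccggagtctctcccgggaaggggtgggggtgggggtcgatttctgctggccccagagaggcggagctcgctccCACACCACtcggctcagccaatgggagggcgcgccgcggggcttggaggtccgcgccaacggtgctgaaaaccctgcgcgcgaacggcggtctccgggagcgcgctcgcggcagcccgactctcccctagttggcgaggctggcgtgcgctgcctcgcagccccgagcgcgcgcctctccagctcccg

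Genes of fatty acid uptake and oxidation gave 3 higher and 8 lower of 32 tested. The fatty acid transporter Cd36 had 6.92, 6.76 and 5.68 CPM at 3-4 weeks, against 26.4, 27.1 and 19.5 CPM at 0-3 days and fell by 1.92 ± 0.29 in log2 (SE, adjusted p = 6.98e-05); it is also high in heart muscle cells and endothelium, and it overlaps RGD1565355 on the same strand, so its count is uncertain. Glycolysis genes gave 2 higher and 7 lower of 25 tested. The glucose transporter Slc2a1 had 58.7, 59.4 and 71.05 CPM at 3-4 weeks, against 93.9, 95.6 and 87.7 CPM at 0-3 days and fell by 0.55 ± 0.15 in log2 (SE, adjusted p = 0.00986). The 2 that rose were Pfkp and Eno2. Pfkp, a phosphofructokinase, had 202, 207 and 212 CPM at 3-4 weeks, against 143, 136 and 139 CPM at 0-3 days and rose by 0.57 ± 0.07 in log2 (SE, adjusted p = 3.45e-06). Eno2, an enolase, had 59.1, 39.7 and 49.95 CPM at 3-4 weeks, against 28.4, 29.7 and 24.6 CPM at 0-3 days and rose by 0.85 ± 0.15 in log2 (SE, adjusted p = 0.000306). Of 11 genes of the mitochondrial genome, 0 were called by edgeR, DESeq2 or limma-voom, with 0 at an unadjusted p under 0.05 in edgeR.

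Glutathione and xenobiotic genes gave 8 higher and 3 lower of 31 tested. Gpx3, the secreted glutathione peroxidase, had 613, 546 and 814 CPM at 3-4 weeks, against 215, 175 and 164 CPM at 0-3 days and rose by 1.83 ± 0.23 in log2 (SE, adjusted p = 1.64e-05). At later ages Gpx3 averaged 798 ± 206 CPM at 10-13 weeks and 1560 ± 340.0 CPM at 20 months (SD, n = 3 each). Aox1, aldehyde oxidase, had 10.9, 5.82 and 7.49 CPM at 3-4 weeks, against 0.133, 0.823 and 1.01 CPM at 0-3 days and rose by 3.63 ± 0.38 in log2 (SE, adjusted p = 1.08e-06). Gsta1, a glutathione transferase of a family with close copies, had 19.3, 21.7 and 27.5 CPM at 3-4 weeks, against 9.18, 7.4 and 8.79 CPM at 0-3 days and rose by 1.43 ± 0.21 in log2 (SE, adjusted p = 6.09e-05). All 3 were higher in each library of 3-4 weeks.

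Mitosis genes gave 0 called of 32 tested in edgeR, 1 in DESeq2 and 17 in limma-voom, with 13 at an unadjusted p under 0.05 in edgeR, although all 32 had a negative change and the median was -1.02. The list summed to 500.5, 2819 and 1407 CPM at 3-4 weeks against 3048, 3309 and 2872 CPM at 0-3 days. Library 1 of 3-4 weeks was the lowest by far, and library 2 lay close to the 0-3 days libraries. Without library 2 of 3-4 weeks 28 members fell. Cdk1, the kinase that starts mitosis, had 19.1, 106 and 52.4 CPM at 3-4 weeks, against 141, 132 and 117 CPM at 0-3 days and was not called (adjusted p = 0.0934). Genes of G1/S and DNA replication gave 0 higher and 3 lower of 40 tested, against 0 lower without library 1 of 3-4 weeks, library 3 of 3-4 weeks or library 3 of 0-3 days, 16 lower without library 2 of 3-4 weeks and 1 lower without library 2 of 0-3 days. Their levels followed the same order of libraries, with sums of 1643, 3403 and 2256 CPM at 3-4 weeks against 3332, 3243 and 3424 CPM at 0-3 days. Of 22 cell cycle inhibitors and p53 targets 6 rose and 3 fell, against 2 higher and 2 lower without library 1 of 3-4 weeks. Gadd45a, a p53 target of the stress response, had 66.8, 42.1 and 41.4 CPM at 3-4 weeks, against 25.1, 21.1 and 22.6 CPM at 0-3 days and rose by 1.13 ± 0.24 in log2 (SE, adjusted p = 0.00183).

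The cell cycle homology region (CHR), an element of late cell cycle genes, was searched as TTTGAA on both strands of the RefSeq promoters (GRCr8). It was in 19 of 28 promoters of the mitosis list (67.9%), in 2 of 28 promoters of the G1/S list (7.14%) and in 18.1% of all promoters. The Cdk1 promoter is shown because it holds 2 copies, given in capitals, and its transcript followed the library pattern above.
Cdk1, chr20:19265043-19265342, plus strand: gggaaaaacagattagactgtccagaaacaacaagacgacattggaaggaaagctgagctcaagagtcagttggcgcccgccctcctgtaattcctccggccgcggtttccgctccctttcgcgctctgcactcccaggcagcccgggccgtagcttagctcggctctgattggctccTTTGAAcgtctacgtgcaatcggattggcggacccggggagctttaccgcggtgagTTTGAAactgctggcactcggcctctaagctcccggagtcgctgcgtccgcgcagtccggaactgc

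**Figure D5:**
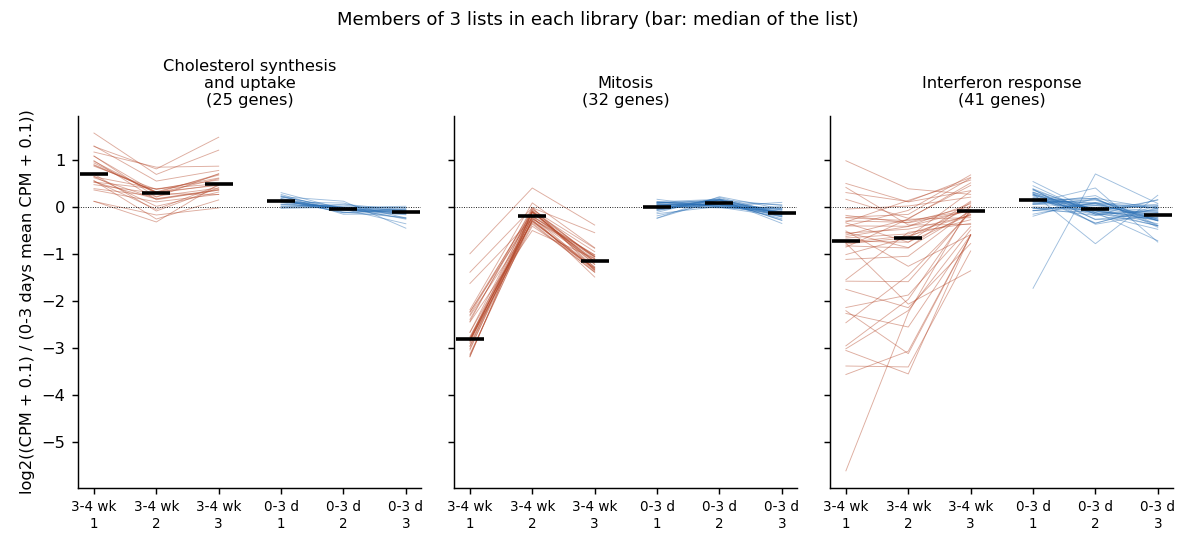
Each line is 1 gene of a list across the 3 libraries of 3-4 weeks (left, orange) and of 0-3 days (right, blue), as log2 of CPM plus 0.1 over the 0-3 days mean plus 0.1; black bars are list medians. Mitosis genes differ mainly between libraries of 3-4 weeks, and interferon genes are highest there in library 3.

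Among immune genes, chemokines and cytokines gave 0 higher and 14 lower of 32 tested, with a median change of -1.29, against 9 lower without library 2 of 3-4 weeks and 7 lower without library 2 of 0-3 days. Ccl2, which draws monocytes, had 169, 65.3 and 86.4 CPM at 3-4 weeks, against 263, 597 and 414 CPM at 0-3 days and fell by 1.99 ± 0.65 in log2 (SE, adjusted p = 0.031). Ccl7, of the same family, had 54.1, 29.99 and 39.5 CPM at 3-4 weeks, against 108, 183 and 127 CPM at 0-3 days and fell by 1.76 ± 0.53 in log2 (SE, adjusted p = 0.0202). Cxcl1, which draws neutrophils, had 2.31, 1.2 and 2.01 CPM at 3-4 weeks, against 7.41, 43.8 and 15.99 CPM at 0-3 days and fell by 3.6 ± 1.07 in log2 (SE, adjusted p = 0.0193). Library 2 of 0-3 days was the highest in all 3, and the groups did not overlap. Ccl2 was not called without library 2 or 3 of 0-3 days or library 2 or 3 of 3-4 weeks (adjusted p between 0.0594 and 0.108). Ccl7 was not called without library 2 of 0-3 days or library 2 or 3 of 3-4 weeks (adjusted p between 0.0628 and 0.0766). Cxcl1 was not called without library 2 of 0-3 days or library 1, 2 or 3 of 3-4 weeks (adjusted p between 0.0593 and 0.102). Cxcl1 was also not called by limma-voom (adjusted p = 0.232), nor Ccl2 by edgeR without the low-count filter (adjusted p = 0.0617). With the library number as a block and only the compared libraries, edgeR called none of these 3 (adjusted p between 0.0519 and 0.0999). The summed macrophage and leukocyte markers were lower in 2 of the 3 libraries of 3-4 weeks than in any library of 0-3 days.

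Interferon response genes gave 0 higher and 6 lower of 41 tested, beside 12.7% and 12.3% of all genes. The count of lower genes was 0 without library 1 and 16 without library 3 of 3-4 weeks. It was 2 without library 1 of 0-3 days. Without library 2 of 3-4 weeks 2 were higher and 1 lower. The list summed to 1353, 1398 and 2188 CPM at 3-4 weeks against 2454, 2010 and 1832 CPM at 0-3 days, so library 3 of 3-4 weeks lay within the 0-3 days range. Complement genes gave 0 higher and 7 lower of 23 tested, against 4 lower without library 1 of 0-3 days or library 2 of 0-3 days. MHC class II presentation gave 3 higher and 1 lower of 8 tested. Cd74, the invariant chain of class II, had 11.3, 12.4 and 17.7 CPM at 3-4 weeks, against 4.7, 3.82 and 3.19 CPM at 0-3 days and rose by 1.82 ± 0.40 in log2 (SE, adjusted p = 0.00246).

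Some of the largest changes fell outside these lists. Adamtsl3, a matrix protein related to ADAMTS proteases but without the protease part, had 248, 236 and 196 CPM at 3-4 weeks, against 40.7, 36.1 and 38.9 CPM at 0-3 days and rose by 2.55 ± 0.20 in log2 (SE, adjusted p = 1.74e-08); the gene lies at chr1:144239020-144561247 on the plus strand of Rnor_6.0. At later ages Adamtsl3 averaged 168 ± 28.4 CPM at 10-13 weeks and 153 ± 20.8 CPM at 20 months (SD, n = 3 each). Itgbl1, a secreted protein with integrin-like repeats (chr15:110114148-110378969 on the plus strand of Rnor_6.0), had 156, 145 and 223 CPM at 3-4 weeks, against 24.98, 20.5 and 31.9 CPM at 0-3 days and rose by 2.76 ± 0.32 in log2 (SE, adjusted p = 5.93e-06). Cmklr1, the chemerin receptor, had 196, 155 and 154 CPM at 3-4 weeks, against 44.99, 32.3 and 41.6 CPM at 0-3 days and rose by 2.08 ± 0.26 in log2 (SE, adjusted p = 1.4e-05). Cygb, cytoglobin, a globin of fibroblasts and stellate cells, had 169, 176 and 256 CPM at 3-4 weeks, against 55.5, 37.9 and 34.6 CPM at 0-3 days and rose by 2.23 ± 0.32 in log2 (SE, adjusted p = 6.38e-05). All were higher in each library of 3-4 weeks, and the lack of overlap was a condition for naming them. Myo7a, an unconventional myosin known from hair cells, had 269, 153 and 201 CPM at 3-4 weeks, against 45.03, 38.7 and 38.7 CPM at 0-3 days and rose by 2.35 ± 0.23 in log2 (SE, adjusted p = 6.79e-07). Kcnv2, a modifier subunit of potassium channels, had 14.4, 19.4 and 21.6 CPM at 3-4 weeks, against 2.93, 2.18 and 2.03 CPM at 0-3 days and rose by 2.95 ± 0.32 in log2 (SE, adjusted p = 3.03e-06).

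Among the genes that fell most, Clu, the secreted chaperone clusterin (chr15:42640146-42665857 on the plus strand of Rnor_6.0), had 10.1, 7.9 and 28.2 CPM at 3-4 weeks, against 299, 293 and 208 CPM at 0-3 days and fell by 4.1 ± 0.47 in log2 (SE, adjusted p = 4.71e-06). The log2 change of Clu was -4.88 without library 3 of 3-4 weeks. Parm1 had 7.76, 10.3 and 13.4 CPM at 3-4 weeks, against 104, 108 and 78.8 CPM at 0-3 days and fell by 3.21 ± 0.32 in log2 (SE, adjusted p = 1.04e-06). Sorbs2, an adaptor of the actin cytoskeleton and Z-disc, had 9.8, 13.7 and 13.8 CPM at 3-4 weeks, against 84.9, 98.2 and 107 CPM at 0-3 days and fell by 2.96 ± 0.21 in log2 (SE, adjusted p = 7.82e-09). Hspb7, the small heat shock protein of heart muscle, had 11.3, 15.7 and 16.6 CPM at 3-4 weeks, against 79.1, 80.4 and 98.9 CPM at 0-3 days and fell by 2.57 ± 0.24 in log2 (SE, adjusted p = 4.14e-07). Sorbs2 and Hspb7 are expressed in heart muscle cells, whose markers were lower in the same libraries. Clec14a, an endothelial lectin, had 10.2, 10.6 and 10.8 CPM at 3-4 weeks, against 47.96, 61.8 and 51.3 CPM at 0-3 days and fell by 2.35 ± 0.22 in log2 (SE, adjusted p = 2.75e-07), and the water channel Aqp1 had 14.2, 21.7 and 20.8 CPM at 3-4 weeks, against 82.1, 88.2 and 107 CPM at 0-3 days and fell by 2.29 ± 0.28 in log2 (SE, adjusted p = 8.78e-06), beside lower endothelial sums. Cpe, carboxypeptidase E, had 44.2, 36.96 and 26.6 CPM at 3-4 weeks, against 169, 166 and 153 CPM at 0-3 days and fell by 2.18 ± 0.27 in log2 (SE, adjusted p = 1.47e-05). In each of these, the highest 3-4 weeks library was below the lowest 0-3 days library, which was a condition for naming them. At later ages Cpe averaged 34.7 ± 8.48 CPM at 10-13 weeks and 359 ± 125 CPM at 20 months (SD, n = 3 each).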

How the data were processed

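RNA-seq was measured in 24 libraries of rat cardiac fibroblasts, 3 for each of 4 ages at 2 glucose levels, prepared with a VAHTS Universal V6 kit per the labels' protocols; the kit's strand setting is not given in the sources used here. The authors deposited a table of raw counts and FPKM values per gene. The submitters' processing notes name HISAT2 2.0.4, StringTie 1.3.0, edgeR and the build Rnor_6.0, without saying which step each one served. Groups were taken from the age and glucose labels.

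From the deposited counts, genes with low counts were filtered with filterByExpr (minimum count 10, total 15), TMM factors were computed and edgeR 4.0.16 (R 4.3.3) fitted robust quasi-likelihood models over all 24 libraries with 8 group means. P-values were two-sided with Benjamini-Hochberg adjustment over 13806 genes. The fit was also run on simulated counts with the same dispersion for every gene and independent libraries. That run could not show how libraries that deviate together affect the p-values. FPKM values were used only to set levels of different genes side by side. Alternatives used DESeq2 1.42.0, limma-voom (limma 3.58.1), other scaling and filters, and fits without single libraries. Lists were described by counts and medians without a test. The comparison, the members and the lists were chosen with earlier results of these data known.

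Named genes were those with the largest changes among called genes without overlap (up to 12 per direction, overall and with at least 10 CPM in the lower group), up to 6 genes per list with the smallest adjusted p, members that moved against their list, the largest interactions and a fixed set. Acat2, Ccl2, Ccl7, Col18a1, Cxcl1, Cyr61, Fads1, Fasn, Figf, Igf1r, Igfbp4, Lama4, Lamb2, Loxl2, Myl9, Myocd, Spp1, Stc2, Tagln, Thbs1, Tnnt2, Tpm1 and Wnt4 were chosen outside this rule after their values were seen. Normal and high glucose libraries of one age and number deviated together, which was taken from the data and not from the labels.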

Additional observations from a re-analysis of the deposited data

How the results depend on the processing

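Calls of 3-4 weeks against 0-3 days in normal glucose lay between 3045 and 3784 genes with other scaling factors, filters, DESeq2 or limma-voom. With upper-quartile factors 55.1% of the calls were higher, against 50.7% with TMM. Leaving out 1 library gave 2289 to 3865 calls in normal glucose and 2354 to 4201 in high glucose. With only the compared libraries the counts were 2462 in normal and 2135 in high glucose. The number of the library as a replicate block gave 4001 calls over all 24 libraries and 1450 with only the compared libraries, where high glucose gave 739, and the block within each age gave 2 genes for the difference between glucose levels. That block and a fit of only the 12 normal glucose libraries, with 3133 calls, were chosen after seeing the data. Deviations of same-numbered libraries of the 2 ages correlated by -0.18 to 0.01 across genes, and those of different numbers by -0.11 to 0.13. Whether equal numbers share a preparation across ages is not in the labels and was not tested.

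No gene of the 3457 was called in the opposite direction under any alternative. Of 125 called genes named here 106 kept their call under every alternative, and 0 turned their sign. Many were named for large changes or small adjusted p, which favours keeping a call. Of all 3457 calls, 64.3% to 86.8% were kept without 1 library. With the replicate block and only the compared libraries 41% were kept. That fit lost 15 of the named calls, among them Igfbp3, Ltbp2, Bgn, Figf, Loxl2, Fmod, Wnt5a, Abcc9 and Fasn (adjusted p between 0.0597 and 0.125 in edgeR). Among genes that were not called, the change turned its sign when 1 library was left out, with ranges of -0.14 to 0.64 for Igfbp4, -0.24 to 0.01 for Tagln, -0.12 to 0.10 for Tbx20 and -0.11 to 0.47 for Tcf21. Genes near 0 at 3-4 weeks rest on few counts. With 3 libraries a group, counting error is small beside the spread between libraries for abundant genes.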
